A study of Mus musculus with 4 samples.

Results

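Mag, Cd22, Ffar1, Ffar2 and Ffar3 are neighbours on mouse chromosome 7, and H3K27me3 over them was described in splenic germinal center B cells with and without the demethylase Kdm6b. These 5 genes, of 21887 protein-coding genes in all, were chosen because the 5′ end of Mag had the largest excess of peak coverage in the knockout among gene ends marked in the knockout alone, and the other 4 because they lie next to it. The genotype contrast at this locus therefore chose the genes, and it is given as a description with no test. The study deposited 4 CUT&Tag peak lists, 2 from wild type (WT) mice and 2 from mice whose B cells lack Kdm6b (knockout, KO). All mice were C57BL/6 and were immunised with sheep red blood cells, challenged again on day 5 and killed on day 12. The series title calls the cells pre-plasma. The sources used here do not give the Cre driver, the deleted part of Kdm6b, the sort markers or the age and sex of the mice. The libraries are called KO1 and KO2 (KO replicates 1 and 2) and WT1 and WT2 (WT replicates 1 and 2). The labels number no replicates, so these numbers only name the libraries and pair none of them.

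H3K27me3 is the mark laid down by the Polycomb complex PRC2 on silent genes, and it often spreads as blocks over lineage genes that a cell does not use. Kdm6b (JMJD3) is an enzyme that takes such methyl groups off H3K27. Cd22 encodes a sialic acid-binding lectin of the Siglec family that restrains B cell receptor signalling, and it is a defining surface gene of B cells. Mag encodes another Siglec, the myelin-associated glycoprotein of oligodendrocytes and Schwann cells. Ffar2 and Ffar3 (GPR43 and GPR41) encode receptors for short-chain fatty acids such as acetate and propionate, and Ffar1 (GPR40) encodes a receptor for longer fatty acids that is best known from pancreatic beta cells. The locus thus sets a B cell gene between a myelin gene and 3 metabolite receptor genes.

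All 5 genes are transcribed from the minus strand, so the 5′ end of each lies at its higher coordinate (mm10). In chromosome order they are Ffar2 (30818031 to 30823775), Ffar3 (30854330 to 30856178), Ffar1 (30860568 to 30861470), Cd22 (30865404 to 30880342) and Mag (30899175 to 30914922). The span of these genes with 50000 bp on each side runs from 30768031 to 30964922, 196892 bp in all. It also holds 6 other protein-coding genes. Dmkn and Krtdap, both genes of the epidermis, lie on the Ffar side, and Hamp2, Hamp, Usf2 and Lsr lie beyond Mag. Hamp encodes the liver iron hormone hepcidin and Hamp2 its close relative.

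The 250 bases before the RefSeq start (GRCm38.p6, minus strand, 5′ to 3′) are shown for 3 genes, because peaks covered that of Mag in KO alone, that of Hamp2 in all 4 libraries and that of Cd22 in no library. Capitals mark CpG dinucleotides, the sites at which promoters can be methylated and around which Polycomb is often found. The positions are chr7:30914923-30915172 for Mag, chr7:30924182-30924431 for Hamp2 and chr7:30879029-30879278 for Cd22. The most upstream of the 3 listed Mag starts was used, and the Cd22 start lies 1314 bp inside the annotated gene end.
Mag: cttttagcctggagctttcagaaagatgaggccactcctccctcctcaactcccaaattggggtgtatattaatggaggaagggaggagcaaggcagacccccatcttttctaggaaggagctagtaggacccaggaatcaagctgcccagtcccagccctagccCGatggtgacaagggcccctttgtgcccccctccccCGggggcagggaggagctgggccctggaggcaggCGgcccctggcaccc
Hamp2: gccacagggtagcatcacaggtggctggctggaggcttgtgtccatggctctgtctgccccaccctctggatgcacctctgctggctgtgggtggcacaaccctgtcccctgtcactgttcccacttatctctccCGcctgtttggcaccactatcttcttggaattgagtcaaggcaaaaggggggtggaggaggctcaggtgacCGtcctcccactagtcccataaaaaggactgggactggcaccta
Cd22: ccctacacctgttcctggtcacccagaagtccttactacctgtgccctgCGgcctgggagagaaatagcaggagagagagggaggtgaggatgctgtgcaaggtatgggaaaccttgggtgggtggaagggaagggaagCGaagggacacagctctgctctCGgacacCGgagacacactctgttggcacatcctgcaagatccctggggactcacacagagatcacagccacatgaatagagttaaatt

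These 3 stretches are all poor in CpG. There are 3 CpG before Mag, 2 before Hamp2 and 4 before Cd22, and the G+C content is 61.2%, 58.4% and 55.2%. The same length before Ffar1 holds 8 CpG, that before Ffar2 holds 9 and that before Ffar3 holds 3. Among 17492 promoters of this length, 76.4% have at least as many CpG as that of Mag and 70.3% at least as many as that of Cd22. The 5966 promoters with 0 to 4 CpG were touched by a peak in 15.6% (KO1), 23.0% (KO2), 21.5% (WT1) and 12.6% (WT2) of cases, against 31.5%, 43.4%, 38.3% and 24.1% of all promoters. Hamp2 in every library and Mag in KO alone thus carried peaks over promoters of a class with a lower share touched by peaks than all promoters.

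The marked part of the locus lay at its edges, and the middle, with Cd22 and the Ffar genes, was nearly free of peaks. Over the whole span there were 16 peaks in KO1, 21 in KO2, 13 in WT1 and 15 in WT2. They covered 14.3%, 26.3%, 15.2% and 7.06% of it. Between the 3′ end of Ffar2 and the 5′ end of Mag, the coverage was 9.91%, 10.7%, 6.02% and 2.20% in the same order, and most of it lay over Mag. The lists themselves differ in breadth. Peaks covered 144 Mb of the genome in KO1, 236 Mb in KO2, 213 Mb in WT1 and 101.4 Mb in WT2, a mean of 190 ± 65.03 Mb for KO and 157 ± 78.6 Mb for WT (SD, n = 2, exact two-sided permutation p = 0.667). Read depth is unknown, so a gene without a peak is one where no stretch passed the authors' peak threshold. Each library pools sorted cells, so a weak mark in all cells and a strong mark in some cells cannot be told apart.

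**Figure D1:**
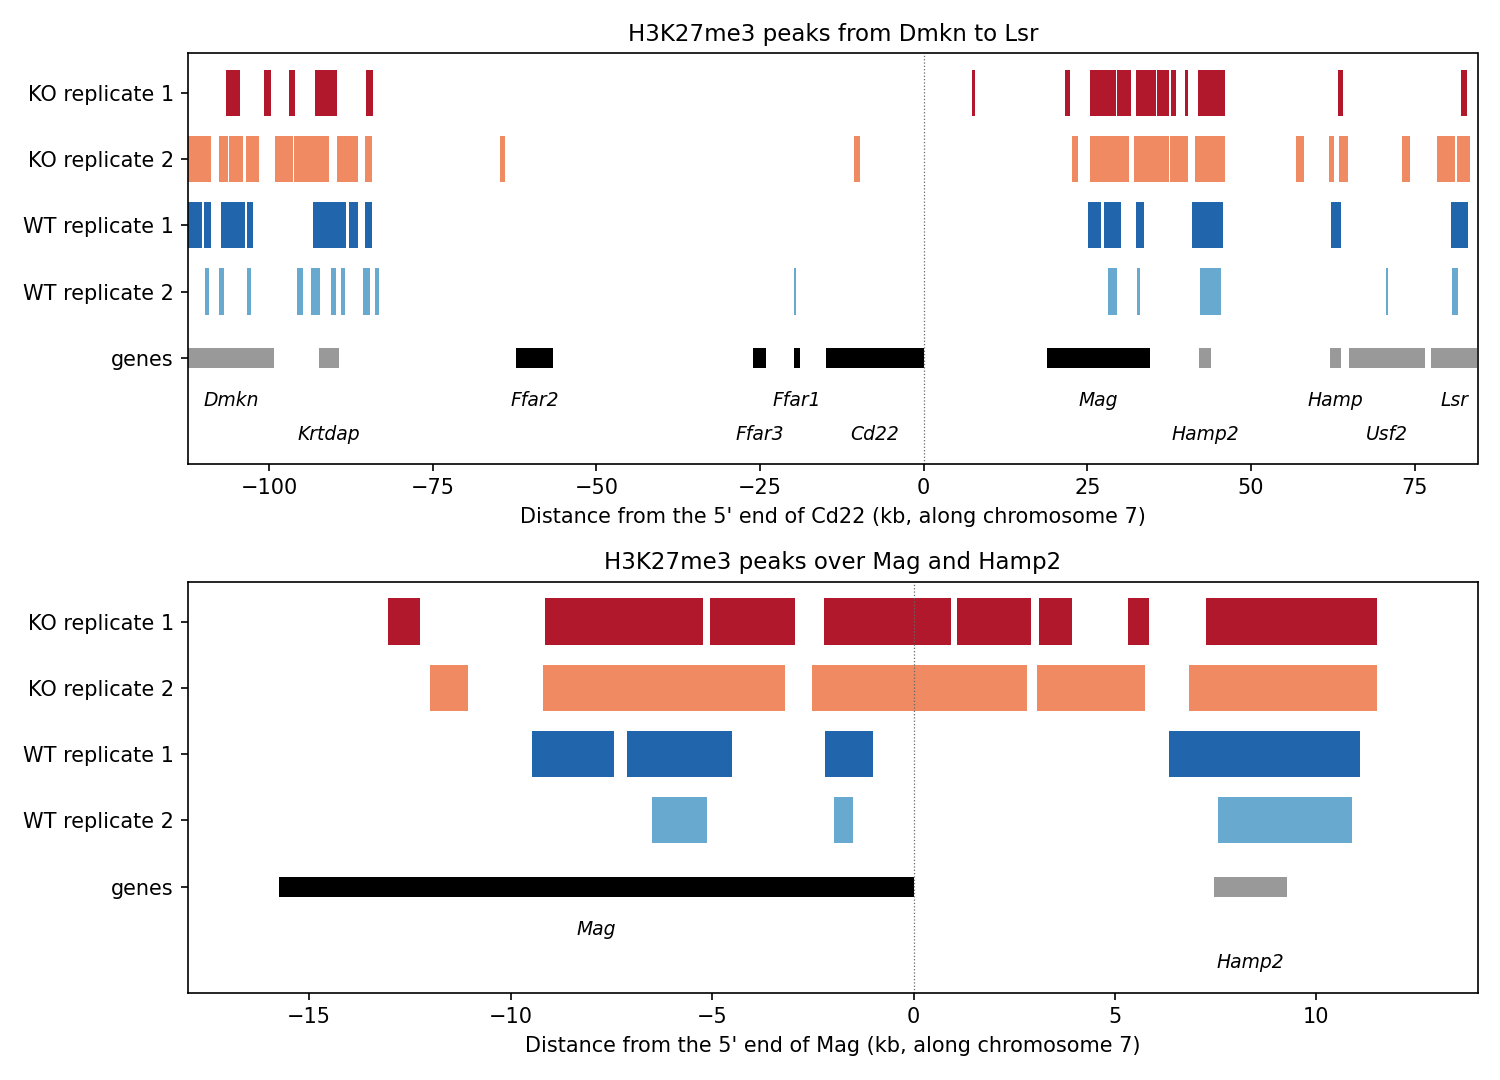
Peaks of each library (coloured bars, 1 row per library) and protein-coding genes (black for Ffar2, Ffar3, Ffar1, Cd22 and Mag, grey for the others) against distance in kb along chromosome 7, from the 5′ end of Cd22 in the upper panel and from the 5′ end of Mag in the lower panel. Peaks crowd over Dmkn, Krtdap, Mag and Hamp2, the stretch from Ffar2 to Cd22 holds 1 peak in KO2 and 1 in WT2, and peaks cross the 5′ end of Mag in the 2 KO libraries.

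Cd22 was free of H3K27me3 peaks in 3 of 4 libraries and at both gene ends in all 4. Its 14939 bp body was covered to 0% in KO1, WT1 and WT2 and to 6.08% in KO2. The KO2 coverage was 1 peak of 908 bp (30869636 to 30870543) inside the gene. Its highest signal lay above 41.5% of the peaks of that list and its total signal above 12.4%. The 4000 bp around the 5′ end and the 4000 bp around the 3′ end were covered to 0% in every library. KO2 is the broadest list.

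The short-chain fatty acid receptor genes had no peak over the body in any library. The same held for 36.9% of all protein-coding genes. Ffar2 (5745 bp) and Ffar3 (1849 bp) were covered to 0% in all 4 libraries, as were the 4000 bp around the 5′ end of each. The 3′ end of Ffar2 was covered to 7.88% in KO2, by the edge of a 660 bp peak (30815686 to 30816345) beyond the gene, and to 0% elsewhere. The 3′ end of Ffar3 was covered to 0% in all 4. The 30554 bp between Ffar2 and Ffar3 held no peak in any library.

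Ffar1 was touched in WT2 alone. A peak of 291 bp (30860491 to 30860781) crossed its 3′ end there and covered 23.7% of the 903 bp body, while the body was at 0% in the other 3 libraries. Because the gene is short, the windows around its 2 ends overlap, and each was covered to 7.28% in WT2 and 0% elsewhere. The highest signal of this peak lay above 67.6% of the peaks of its list, and its total signal above 3.95%. Ffar1 and Cd22 are separated by 3933 bp without a peak in any library.

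**Figure D2:**
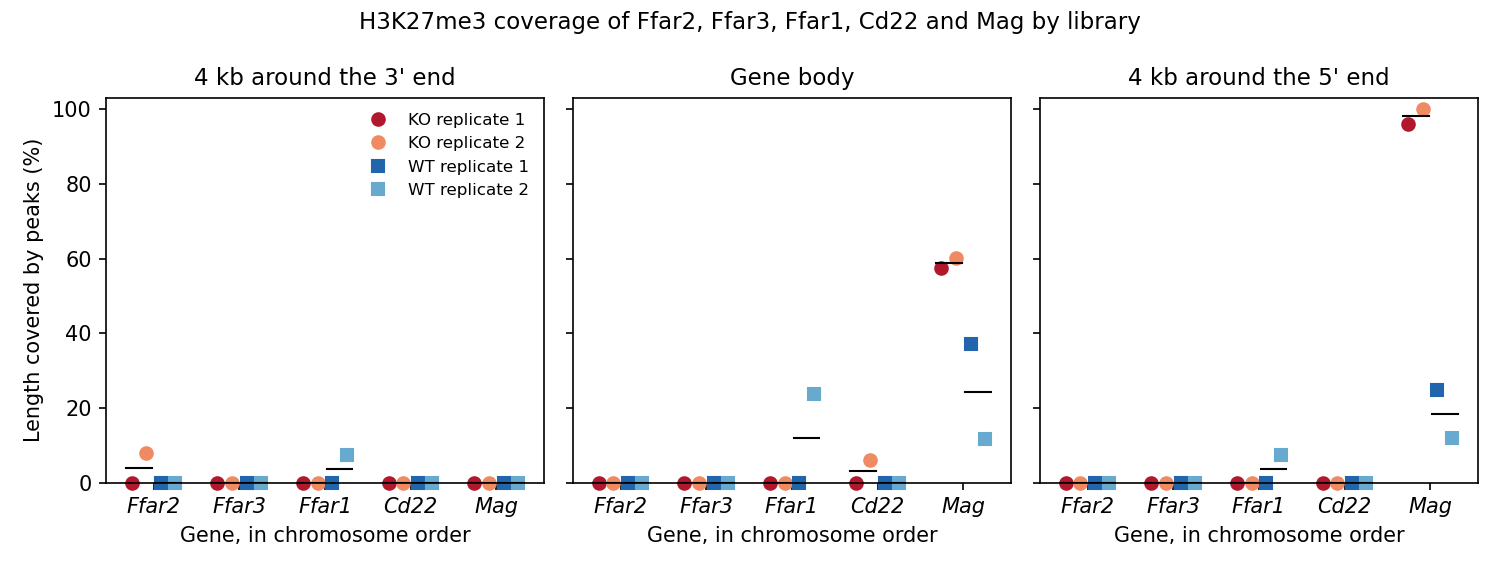
Length covered by peaks (%) for the 4000 bp around the 3′ end, the gene body and the 4000 bp around the 5′ end of each gene, in chromosome order. Circles are KO and squares WT libraries, and black lines are the genotype means (n = 2). Values above 0 at Ffar2, Ffar1 and Cd22 come from 1 library each, while the 5′ end of Mag stands at 96.2% (KO1), 100% (KO2), 24.8% (WT1) and 11.85% (WT2).

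Mag carried H3K27me3 peaks over its body in all 4 libraries, with more of its length covered in KO. The 15748 bp body was covered to 57.6% in KO1, 60.05% in KO2, 37.0% in WT1 and 11.7% in WT2. The KO libraries both exceeded the WT libraries, and the WT libraries differed more from each other than the KO libraries did. The means were 58.8% ± 1.76 for KO and 24.4% ± 17.9 for WT (SD, n = 2), a difference of 34.5 points. Without WT2 the difference was 21.8 points. Over all 21887 gene bodies the mean difference was 2.73 points and the median 0, and 216 bodies had a larger difference than Mag. Coverage was higher in each KO library than in either WT library at 7.75% of all gene bodies and lower at 1.73%. Since Mag was chosen by this contrast, nothing is read from its place there.

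Peaks covered more of the 5′ side of Mag than of its 3′ side. The 7874 bp nearer the 5′ end were covered to 88.65% and 91.6% in KO1 and KO2 and to 53.8% and 23.4% in WT1 and WT2. The 7874 bp nearer the 3′ end were covered to 26.5%, 28.5%, 20.2% and 0%. The 4000 bp around the 3′ end, which face Cd22, were covered to 0% in every library. This order of the 2 sides held in each of the 4 libraries.

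2 stretches within Mag were marked in all 4 libraries, at 30908425 to 30909699 (1275 bp) and 30912948 to 30913421 (474 bp). WT2 had 2 peaks over Mag, of 1367 and 474 bp. WT1 had 3, of 2028, 2608 and 1193 bp. KO1 had 4, the longest 3925 bp, and KO2 had 3, the longest 6002 bp. By highest signal, the peak over the shared 1275 bp stretch lay above 75.4% of its list in KO1, 88.8% in KO2, 82.3% in WT1 and 3.25% in WT2. In WT2 the Mag body peak was therefore among the weakest of its list by height, although its total signal lay above 61.1% of that list.

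The genotypes were furthest apart at the 5′ end of Mag. Its 4000 bp window (30912923 to 30916922) was covered to 96.2% in KO1, 100% in KO2, 24.8% in WT1 and 11.85% in WT2. The means were 98.1% ± 2.70 for KO and 18.3% ± 9.14 for WT (SD, n = 2), a difference of 79.8 points, and 0 of 17492 5′ gene ends had a larger one. The mean difference over those 5′ ends was 4.30 points. At 1.09% of them, both KO libraries were covered to at least 25% and neither WT library was, and at 0.189% the reverse held. These values chose Mag. WT1, at 24.8%, lay just under the 25% line, and with a line of 10% the window counts as marked in all 4 libraries.

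In the WT libraries the peak nearest the Mag start stopped inside the gene, and in the KO libraries it ran on past it. That peak ended at 30913913 in WT1 and at 30913421 in WT2, both below the start at 30914922. In KO1 it ended at 30915850 and in KO2 at 30917748. The 250 bases before the start, shown above, were covered to 100% in both KO libraries and to 0% in both WT libraries. The stretch covered in both KO and neither WT was 1937 bp long here (30913914 to 30915850).

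The KO coverage went on between Mag and Hamp2. This interval of 7449 bp was covered to 57.8% in KO1, 82.1% in KO2, 14.9% in WT1 and 0% in WT2. The KO libraries again both exceeded the WT libraries. A further stretch of 1745 bp (30916004 to 30917748) was covered in both KO and neither WT. At the far side of the interval the genotypes came together. The Hamp2 body was covered to 100% in both KO libraries and WT1 and to 93.9% in WT2, and 3325 bp around it (30922482 to 30925806) were covered in all 4.

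Bases covered in both KO and neither WT made up 8041 bp of the span, or 13.4% of its covered length, and 3987 bp when the lists were brought to equal covered length. The span was chosen for its excess in KO, so this share is not set against the genome. Of these bases, 6604 bp (82.1%) lay from the 3′ end of Mag to the 3′ end of Hamp2, in 7 of 11 stretches. Bases covered in both WT and neither KO came to 280 bp, in 1 stretch within Lsr. Bases covered in all 4 libraries came to 6287 bp, 10.5% of the covered length. KO2 alone covered 16050 bp, 26.7% of the covered length.

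At equal breadth the 5′ end of Mag no longer separated the genotypes. The part of list breadth in the contrast at this window was not tested. In the full lists KO1, with a narrower list than WT1, had 96.2% of this window covered against 24.8%. With each list cut to the covered length of the shortest, by highest signal, the 5′ end of Mag was covered to 96.2% in KO1, 0% in KO2, 0% in WT1 and 11.85% in WT2. The difference fell from 79.8 to 42.2 points and rested on KO1. The cut kept 43314 of 80639 peaks in KO1, 16716 of 90417 in KO2, 21348 of 87486 in WT1 and all 82292 in WT2. By highest signal, the KO2 peak over the Mag start lay above 67.6% of its list and was dropped. That of KO1 lay above 53.9% of its list and was kept. The 0% in KO2 thus depended on how deep that list was cut. The body kept its order, at 52.4% (KO1), 38.1% (KO2), 29.4% (WT1) and 11.7% (WT2). With the upper part of each list by highest signal alone (peaks above the median), the 5′ end stood at 96.2% and 100% in KO and 0% in both WT libraries.

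No gene end passed a test of genotype across the genome. By limma with a threshold of 0.05 on the adjusted p, 0 (0%) of 20791 gene ends with coverage were higher in KO and 0 (0%) were lower (the smallest adjusted p was 0.907), and 701 were higher and 109 lower at an unadjusted p of 0.05. Of 13805 gene bodies with coverage, 2 (0.0145%) were higher and 0 (0%) lower, with 216 and 47 at an unadjusted p of 0.05. The 2 bodies were the olfactory receptor genes Olfr263 and Olfr694, named after their values were seen, and leaving out any of the 4 libraries ended both calls. Mag was not among the called genes. Mag, Cd22 and the Ffar genes are given no p of their own.

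**Figure D3:**
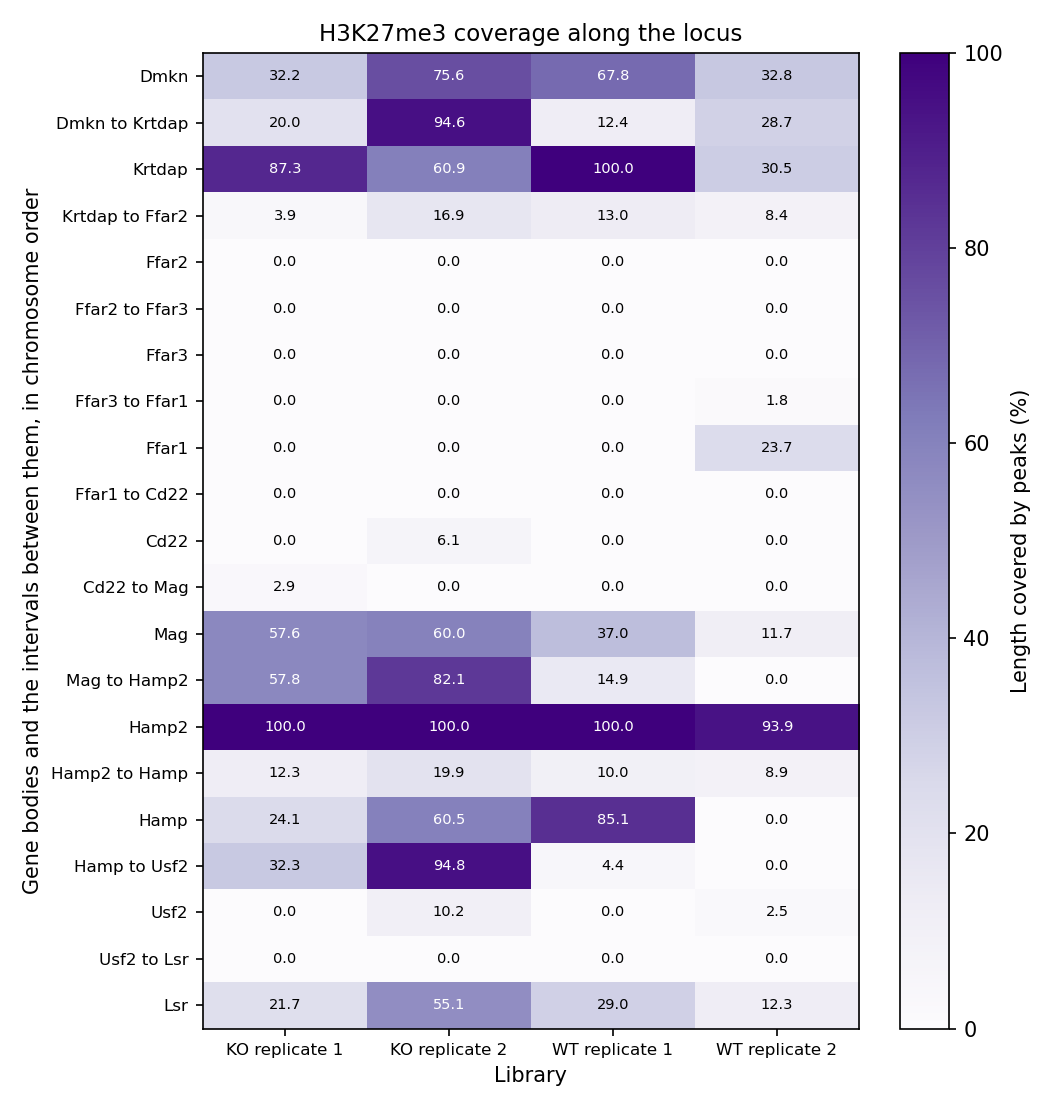
Length covered by peaks (%) in each library (columns) for each gene body and each interval between neighbouring genes (rows, in chromosome order). The rows from Ffar2 to the interval between Cd22 and Mag hold values of at most 23.7%, and Hamp2 holds at least 93.9% in every library. The rows of Mag and of the interval to Hamp2 are higher in both KO libraries than in both WT libraries. The same holds for the intervals from Hamp2 to Hamp and from Hamp to Usf2.

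Where the marked blocks ended beside Cd22 depended on how short a peak was counted. With peaks joined over gaps of at most 1000 bp and blocks of any length, the nearest block on the Mag side lay 7343 bp from Cd22 in KO1, 22580 bp in KO2, 25113 bp in WT1 and 28082 bp in WT2. On the Ffar side the distances were 69194, 49058, 69287 and 4622 bp. The short distances came from small isolated peaks, of 540 bp between Cd22 and Mag in KO1 (30887686 to 30888225) and of 291 bp over Ffar1 in WT2. The first had a highest signal above 18.2% of its list.

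Counting blocks of at least 2000 bp, the edges fell at similar places in 3 libraries. On the Mag side the block began at 30905775 in KO1, 30905736 in KO2 and 30905456 in WT1, which is 25432, 25393 and 25113 bp from Cd22 and inside Mag. In WT2 the first such block was the one over Hamp2, 42139 bp from Cd22. The block that began inside Mag was 13084 bp long in KO1, 14934 bp in KO2 and 4972 bp in WT1. The edges towards Cd22 thus lay close together in these 3 libraries, while the KO blocks ran further than the WT1 block on the other side.

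On the Ffar side, blocks of at least 2000 bp ended 74718 bp from Cd22 in KO1, 71543 bp in KO2, 71516 bp in WT1 and 68247 bp in WT2. These ends all lie between Krtdap and Ffar2 or, in KO1, within Krtdap. The stretch without a block of this size, which holds Cd22 and all 3 Ffar genes, was therefore 115089, 111875, 111568 and 125325 bp long in KO1, KO2, WT1 and WT2. In the same order, 83.7%, 88.8%, 88.5% and 79.9% of all gaps between blocks in the library were shorter, with medians of 11616, 6498, 7339 and 17307 bp. The stretch was thus much longer than the median gap of each library.

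The bodies of the epidermal genes beyond the Ffar genes were marked in every library. The Krtdap body was covered to 87.3% (KO1), 60.85% (KO2), 100% (WT1) and 30.5% (WT2). The Dmkn body was covered to 32.2% (KO1), 75.6% (KO2), 67.8% (WT1) and 32.8% (WT2). Hamp was covered to 24.1% (KO1), 60.5% (KO2), 85.1% (WT1) and 0% (WT2). KO and WT values overlapped over these 3 bodies. Outside the bodies, both KO libraries exceeded both WT libraries at the 3′ end of Dmkn, with 28.3% (KO1), 46.6% (KO2), 0% (WT1) and 0% (WT2). The same held in the 1218 bp between Hamp and Usf2, with 32.3% (KO1), 94.75% (KO2), 4.35% (WT1) and 0% (WT2). It held by less at the 5′ end of Hamp2, with 99.8% (KO1), 100% (KO2), 95.4% (WT1) and 83.1% (WT2). Between Hamp2 and Hamp the values were 12.3% (KO1), 19.9% (KO2), 9.99% (WT1) and 8.94% (WT2). This order held at 7.75% of all gene bodies and was not counted over all gene ends or intervals. Usf2, which encodes a widely expressed E-box factor, was covered to 0% (KO1), 10.2% (KO2), 0% (WT1) and 2.50% (WT2), and Lsr, which encodes a lipoprotein receptor, to 21.7% (KO1), 55.1% (KO2), 29.0% (WT1) and 12.3% (WT2).

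Other Siglec genes were covered over a wide range. Of the 7 besides Mag and Cd22, 3 bodies had no peak in KO1 (42.9%), 2 in KO2 (28.6%), 2 in WT1 (28.6%) and 1 in WT2 (14.3%). Of all protein-coding genes, 54.8%, 44.5%, 50.2% and 57.6% had no peak over the body in the same order. The median coverage of the 7 genes was 2.14%, 44.5%, 40.2% and 13.5%, against 0%, 1.114%, 0% and 0% over all genes. Siglecg, the other inhibitory Siglec of B cells, had 4.21% in WT2 and 0% elsewhere. Siglec1, a macrophage gene, had 55.6% (KO1), 93.3% (KO2), 96.2% (WT1) and 39.15% (WT2), and Siglecf, known from eosinophils, had 61.4% (KO1), 100% (KO2), 73.1% (WT1) and 39.4% (WT2). At both of these genes KO and WT values overlapped. The Mag body lay below Siglecf in every library and below Siglec1 in all but KO1.

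Of 7 receptors for metabolites other than Ffar1, Ffar2 and Ffar3, 1 body had no peak in KO1, KO2 and WT1 (14.3%) and 2 in WT2 (28.6%), shares below those of all genes given above. The oxoglutarate receptor gene Oxgr1 had no peak in any library. Ffar4, the fourth fatty acid receptor gene, lies on chromosome 19 and had its 5′ end covered to 100% in both KO libraries and WT1 and to 95.1% in WT2. Hcar1, the lactate receptor gene, was covered over its body to 98.6% in KO1 and 100% in the others. The median body coverage of the 7 genes was 35.9% (KO1), 62.6% (KO2), 69.8% (WT1) and 9.065% (WT2). Free fatty acid receptor genes were thus marked at Ffar4 and nearly bare at the locus of Cd22.

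Most other B cell surface genes had no peak over the body in 3 of the libraries, and KO2 was the exception. Of 15 such genes besides Cd22, 12 bodies had no peak in KO1 (80.0%), 12 in WT1 (80.0%) and 14 in WT2 (93.3%), above the shares for all genes of 54.8%, 50.2% and 57.6%. In KO2, 5 had none (33.3%), below the 44.5% of all genes. The KO2 coverage included 11.7% of Cd79a and 58.9% of Cd79b, which encode subunits of the B cell receptor. Both were at 0% in the other libraries. Tnfrsf13c, named after its values were seen, was covered over the body to 12.4% (KO1) and 15.9% (KO2). Its 5′ end was covered to 27.95% (KO1) and 30.1% (KO2), and both were at 0% in the WT libraries. Ms4a1, also named after its values were seen, was covered over the body to 1.24% (KO1), 6.56% (KO2) and 0% in both WT libraries. No listed gene had peaks over the body in both WT libraries and neither KO library. Of all gene bodies, 7.75% were covered more in each KO library than in either WT library, and 1.73% less. Of all 5′ gene ends, 1.09% reached 25% in both KO and neither WT, and 0.189% the reverse. Cr2, Fcgr2b, Cd38, Cd74 and Cd83 had no peak over the body in any library. With Cd22 counted, these were 5 of 16 genes (31.25%), below the 36.9% of all protein-coding genes. The small Cd22 peak of KO2 thus came with peaks at other B cell genes of that library, and the part of list breadth in it was not tested beyond the equal-length lists, in which the Cd22 body was at 0% in all 4 libraries.

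Of 12 genes that act with Cd22, 8, 2, 8 and 5 bodies had no peak in KO1, KO2, WT1 and WT2. These shares were above those of all genes in KO1 (66.7% against 54.8%) and WT1 (66.7% against 50.2%) and below them in KO2 (16.7% against 44.5%) and WT2 (41.7% against 57.6%). Median coverage was 0%, 1.28%, 0% and 0.500%. Ptpn6 encodes the phosphatase SHP-1 that Cd22 recruits, and its 5′ end was covered to 6.25% (KO1), 60.5% (KO2) and 0% in both WT libraries. Over its body KO and WT values overlapped, at 0% (KO1), 14.4% (KO2), 9.69% (WT1) and 0% (WT2). Lyn encodes the kinase that phosphorylates Cd22, and its body had at most 0.682%. Cmah, which makes the sialic acid form that mouse Cd22 prefers, had its 5′ end marked in all 4 libraries, at 100%, 100%, 100% and 90.9%.

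**Figure D4:**
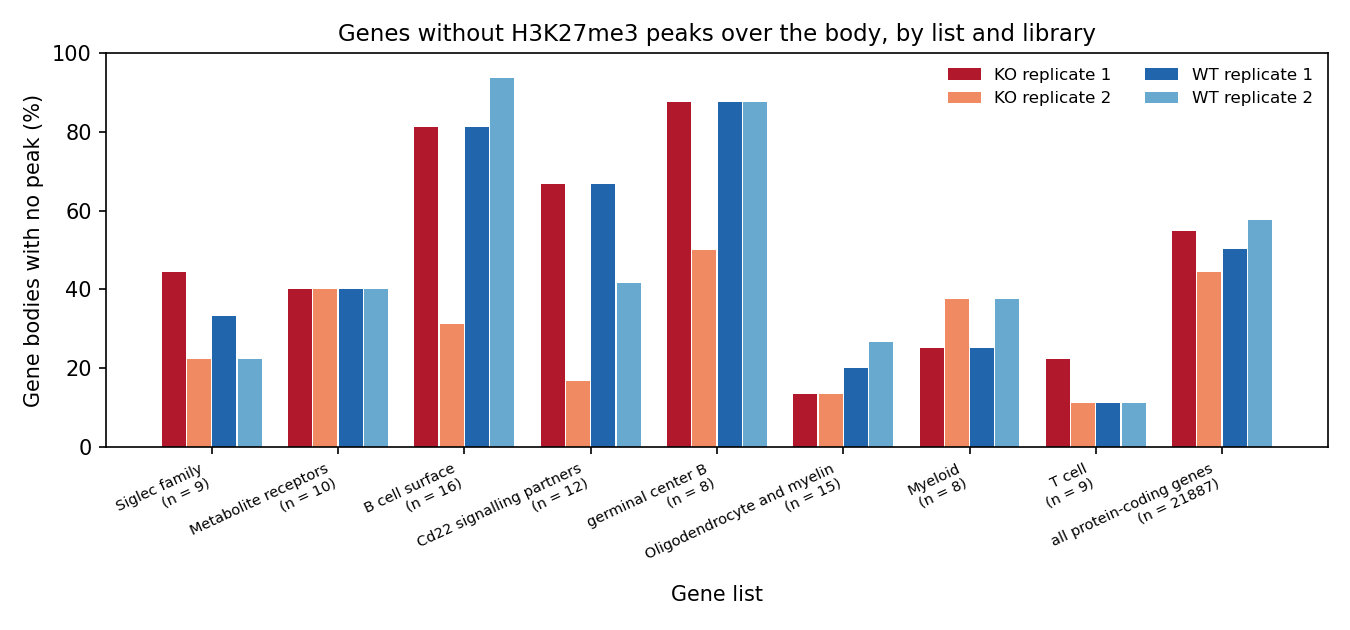
Share of gene bodies with no peak (%) in each library (bars) for each gene list, with the number of genes found, and for all protein-coding genes. B cell surface and germinal center B genes stand above all genes in every library but KO2 for the former, while the oligodendrocyte and T cell lists stand below all genes in each library. The lists are drawn whole, with Mag, Cd22 and the Ffar genes in them.

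Likeness to the 5′ end of Mag was taken as the mean absolute difference in coverage over the 4 libraries. Predicted and clone-named genes and olfactory, vomeronasal and taste receptor genes were left out of the 17492 5′ ends. The most alike of the remaining 5′ ends were those of Akap3 (9.66 points), Lyg2 (11.8), Tle3 (13.7), Ctsl (13.9) and Slc38a8 (15.9). Akap3 was covered to 66.3% (KO1), 96.9% (KO2), 29.0% (WT1) and 13.3% (WT2). Lyg2 was covered to 70.7% (KO1), 89.0% (KO2), 15.9% (WT1) and 10.1% (WT2). Ctsl had 68.9% in WT1 against 15.9% in WT2. Likeness was measured over 2 libraries per genotype.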

How the data were processed

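H3K27me3 was mapped by CUT&Tag in 2 KO and 2 WT libraries of sorted splenic germinal center B cells, with 1 µg of antibody per library per the labels' protocols. Per the submitters' processing notes, the authors used SEACR, deepTools, Bowtie2 2.4.2, Trim Galore 0.6.6 and SAMtools 1.11 with the mm10 build. The sources used here do not give settings, peak threshold or control. The authors deposited 1 peak list per library, with positions and signal (coverage) on a scale that is not stated, so peaks were ranked by signal inside their own list and signal was never compared between libraries. A broader list can raise covered shares at any gene.

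Peaks outside chromosomes 1 to 19, X and Y were dropped. The share of each gene body and of 2000 bp to each side of each gene end that peaks cover was computed per library. Genes were RefSeq on GRCm38.p6. Strand came from the RefSeq promoter table for 17492 of 21887 genes. All 5 members matched. Shares were fitted across all genes with limma 3.58.1 (lmFit, eBayes) in R 4.3.3, with Benjamini-Hochberg adjustment at 0.05, leaving out features without coverage. The script was tested on simulated data. Covered length was compared by exact permutation. Per the series description the libraries came from separate mice, so p-values measure the spread between these 4 mice. Python 3.11.15, numpy 2.4.6, pandas 2.3.3, scipy 1.17.1 and matplotlib 3.10.9 were used.

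Members and gene lists (Siglec, metabolite receptor, B cell surface, Cd22 partner and cell type lists) were chosen with earlier results of these data known. List counts in the text leave out the members, except where Cd22 is said to be counted. Named genes were the members, all protein-coding genes in the span, at most 4 genes per list, and the 5 genes most like Mag. List genes with no peak in any library were named beyond this, after their values were seen. The alternatives were lists of equal covered length, a stricter threshold, other windows, thresholds and gaps, and leaving out each library.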

Additional observations from a re-analysis of the deposited data

How the results depend on the processing

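Lists of equal covered length, the stricter threshold (peaks above each list's median highest signal) and the other window sizes kept the Mag differences above 0. The excess at the Mag 5′ end was 42.2 points at equal covered length, 98.1 with the stricter threshold and 98.2 with 1000 bp to each side. Leaving out each library gave 73.3 to 86.2 points there and 21.8 to 47.1 for the Mag body. Limma called 2 bodies higher in KO, 0 with covered length as a covariate or at equal covered length, 8 without the filter on coverage and 0 on leaving out any of the 4 libraries. At equal covered length 1 body, Ifnab, was lower. Without the filter 22 of 43774 gene ends were higher and 5 lower. The shares of marked ends given above are of 17492 5′ ends, while the next counts are of 43774 ends, both ends of each gene. Gene ends marked in KO alone numbered 404, and 633 with a line of 10%, 240 with 50% and 244 at equal covered length. Those marked in WT alone numbered 70, and 148, 12 and 187. With blocks of at least 2000 bp the block on the Ffar side moved to 71543 bp from Cd22 in KO2 and 68247 bp in WT2, and that on the Mag side to 25432 bp in KO1 and 42139 bp in WT2. At equal covered length the former was 75851 bp in KO2 and 87452 bp in WT1, and the latter 25432 bp in KO1. Locus bases covered in all 4 libraries fell from 6287 to 3961 with the stricter threshold. Those in KO alone fell from 8041 to 3987 at equal covered length, and those in WT alone rose from 280 to 707 there and to 1931 with the stricter threshold. Except where an alternative's own construction applies (fewer peaks, fewer samples), the cause was not tested. No paired analysis was possible because the labels give no replicate numbers, and the numbers used here only name the libraries. The limma alternatives at equal covered length, with the stricter threshold and with other windows, the equal-length counts of gene ends, and the base counts were chosen after seeing the data. Read depth is unknown, so weak marks below the authors' threshold were not detectable.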

Other observations

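Most other genes of the cells in which Mag is known carried peaks. Of 14 oligodendrocyte and myelin genes besides Mag, 2 bodies had no peak in KO1 (14.3%), 2 in KO2 (14.3%), 3 in WT1 (21.4%) and 4 in WT2 (28.6%), against 54.8%, 44.5%, 50.2% and 57.6% of all protein-coding genes. Their median coverage was 20.7%, 44.4%, 38.7% and 19.8%. The lineage factor genes Olig1 and Sox10 were covered to 78.2% and 73.3% in WT2, their lowest values. Mal, a myelin membrane gene, had its 5′ end covered to 100% in all 4 libraries. Mog, another myelin surface gene, was covered over the body to 47.6% (KO1), 60.3% (KO2), 54.1% (WT1) and 37.4% (WT2), and its 5′ end was covered to 40.9% in KO2 and 0% elsewhere. Omg, another myelin gene, had no peak in any library, so the myelin genes were not marked as a whole.

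Of 8 germinal center genes, 7 bodies had no peak in KO1 and in each WT library (87.5%), above the shares for all genes, and 4 had none in KO2 (50%), near the 44.5% of all genes. Bcl6, S1pr2, Gcsam and Rgs13 had no peak over the body in any library, 4 of 8 genes (50%) against 36.9% of all genes. The 5′ end of Basp1 was covered to 72.6% in KO2 and 23.6% in WT2, and that of Fas to 21.15% in KO2 and 1.875% in WT1, with 0% in the other libraries at both. Of 8 myeloid genes, 2, 3, 2 and 3 bodies had no peak in KO1, KO2, WT1 and WT2, and of 9 T cell genes 2, 1, 1 and 1. These shares were 25.0%, 37.5%, 25.0% and 37.5% for the myeloid list and 22.2%, 11.1%, 11.1% and 11.1% for the T cell list, each below that of all genes. Coverage ran from 0% in every library at S100a9 and Lck to high values at others. Cd14 was covered to 100% in every library, and Cd3e to 70.7% (KO1), 91.1% (KO2), 97.6% (WT1) and 58.7% (WT2). Peak lists of H3K27me3 do not measure expression.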
